A study of Mus musculus with 2 samples.

Results

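The genes described here are 10 members of the insulin-like growth factor (IGF) system: the ligands Igf1 and Igf2, the receptors Igf1r and Igf2r, and the binding proteins Igfbp2, Igfbp3, Igfbp4, Igfbp5, Igfbp6 and Igfbp7. They were taken by symbol, and all 10 were found among the 32285 genes of the deposited files. Single-cell RNA was sequenced from the RPE, choroid and sclera of C57BL/6J mice aged 3 months, 7 days after 1 µl was injected under the retina, either PBS (control) or doxorubicin at 100 ng/µl (Dox, a drug that damages DNA and drives cells into senescence). In each condition the cells of 10 eyes of 5 mice were pooled, so that there was 1 library per condition and no replicate. The 2 libraries held 20180 control cells and 15426 Dox cells after filtering, with a median of 4495 and 4995 unique molecular identifiers (UMIs, tags that mark single RNA molecules) per cell. No test between the conditions was possible, and the treatment, the injections and the library cannot be told apart. All values below are sums of UMIs over a cell type per 1000000 UMIs of that type (CPM), and every interval is a 95% interval of counting error only.

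IGF-1 and IGF-2 are secreted peptides that act through the IGF-1 receptor, a tyrosine kinase whose signal runs through the insulin receptor substrates and the PI3K and AKT kinases to growth and survival. The receptor encoded by Igf2r has no such kinase and takes IGF-2 and mannose-6-phosphate-tagged enzymes to lysosomes. In tissue fluid most IGF is held by the binding proteins, which carry it, keep it from the receptor or release it when proteases such as PAPP-A cut them. Igfbp7 binds IGFs only weakly. Several binding proteins are also known as secreted products of senescent cells. The RPE, the pigmented layer behind the photoreceptors, renews visual pigment and feeds the outer retina.

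The sequences before 3 gene starts are shown, those of Igfbp2 and Igf1r, the members with a higher level in RPE cells than in fibroblast-like cells, and that of Igfbp4, whose UMIs were mostly in fibroblast-like cells. Each stretch holds the 250 bases before the RefSeq start (GRCm38.p6), on the plus strand at chr1:72824230-72824479, chr7:67952007-67952256 and chr11:99040994-99041243. Capitals mark motif matches on either strand. The GC box was searched as GGGCGG, the E-box as CACGTG, the TATA box as TATAAA.
Igfbp2: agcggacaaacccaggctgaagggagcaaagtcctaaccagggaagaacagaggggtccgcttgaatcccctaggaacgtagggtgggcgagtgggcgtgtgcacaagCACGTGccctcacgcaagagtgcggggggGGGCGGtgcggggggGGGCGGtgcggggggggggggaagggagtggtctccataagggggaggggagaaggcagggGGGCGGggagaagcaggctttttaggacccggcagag
Igf1r: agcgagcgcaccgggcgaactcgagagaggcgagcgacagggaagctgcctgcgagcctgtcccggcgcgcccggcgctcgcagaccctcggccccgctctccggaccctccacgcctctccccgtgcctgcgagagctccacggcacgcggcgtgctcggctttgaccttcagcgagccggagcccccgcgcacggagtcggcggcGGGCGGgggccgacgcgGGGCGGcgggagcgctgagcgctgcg
Igfbp4: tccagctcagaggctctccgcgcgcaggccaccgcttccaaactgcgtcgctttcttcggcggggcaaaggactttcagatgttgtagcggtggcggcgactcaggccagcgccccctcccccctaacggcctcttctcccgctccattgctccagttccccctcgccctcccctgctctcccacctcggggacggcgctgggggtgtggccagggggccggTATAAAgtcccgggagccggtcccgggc
The Igfbp2 stretch held 3 GC boxes and 1 E-box, the Igf1r stretch 2 GC boxes, and the Igfbp4 stretch 1 TATA box. Over 32851 promoters of this length, 32.7% held the GC box, 6.02% this E-box and 12.4% the TATA box. Another E-box, searched as CATGTG, was in 12.3% of promoters, the site of OTX factors, searched as TAATCC, in 6.25%, with neither found in the 3 stretches. GC content was 67.2%, 77.6% and 69.2%, against a median of 52.4%. These matches are descriptions of letters, and binding was not measured.

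On GRCm38, in the GENCODE vM21 annotation, Igfbp2 (ENSMUSG00000039323) lies at chr1:72824503-72852474 on the plus strand and Igfbp5 (ENSMUSG00000026185) at chr1:72857932-72874884 on the minus strand. Their 3′ ends face each other, with 5457 bases between them. Igfbp3 lies at chr11:7206086-7213923, Igfbp4 at chr11:99041244-99054392, Igfbp6 at chr15:102144362-102149511 and Igfbp7 at chr5:77349240-77408041. Igf1 lies at chr10:87858265-87937042, Igf1r at chr7:67952827-68233668 and Igf2r at chr17:12682406-12769664. Igf2, at chr7:142650766-142666816, shares its strand with the insulin gene Ins2 at chr7:142678656-142743381. Igfbp7, Igf1, Igf2 and Igf2r each overlap a gene on the opposite strand (Igf2r overlaps Airn). Igf2 also overlaps Gm49394 and Mir483 on its own strand, so that its UMIs are less certain than those of the others.

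RPE cells were taken as cells with at least 10 UMIs of Rpe65, the retinoid isomerase of the RPE, and were kept apart from every cluster. There were 1526 in control (7.56% of cells, median 16013.5 UMIs) and 1630 in Dox (10.6%, median 18115.5 UMIs). Of 12 RPE markers, 11 were at 10 CPM or more in both libraries, Rpe65 itself being the gene of the rule. The libraries were far from pure RPE: 12688 control and 9709 Dox cells were fibroblast-like, in clusters led by Myoc, by Cxcl10 and by Sfrp4. The cluster led by Cxcl10 had no fibroblast marker among its 10 leading genes. RPE cells also carried RNA of other types. Of 17 fibroblast markers, 16 were detected in RPE cells of each library and Kera was at 0, with a sum of 1882 CPM in control and 1121 CPM in Dox. All 9 melanocyte markers were detected as well, with a sum of 2755 and 1749 CPM. That list holds pigment genes such as Pmel, which the paper reports in RPE cells. Its sum is therefore not read as RNA of other types. Because of the fibroblast RNA, several members are given beside NK or T-like cells (467 control cells with a median of 3730 UMIs, 275 Dox cells with 3909). These served as a rough measure of RNA from other cells in a droplet. That RNA was uneven: in control 54.6% of NK or T-like cells held an Igfbp4 UMI. The 10% of them with the most Igfbp4 held 74.2% of its UMIs.

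**Figure D1:**
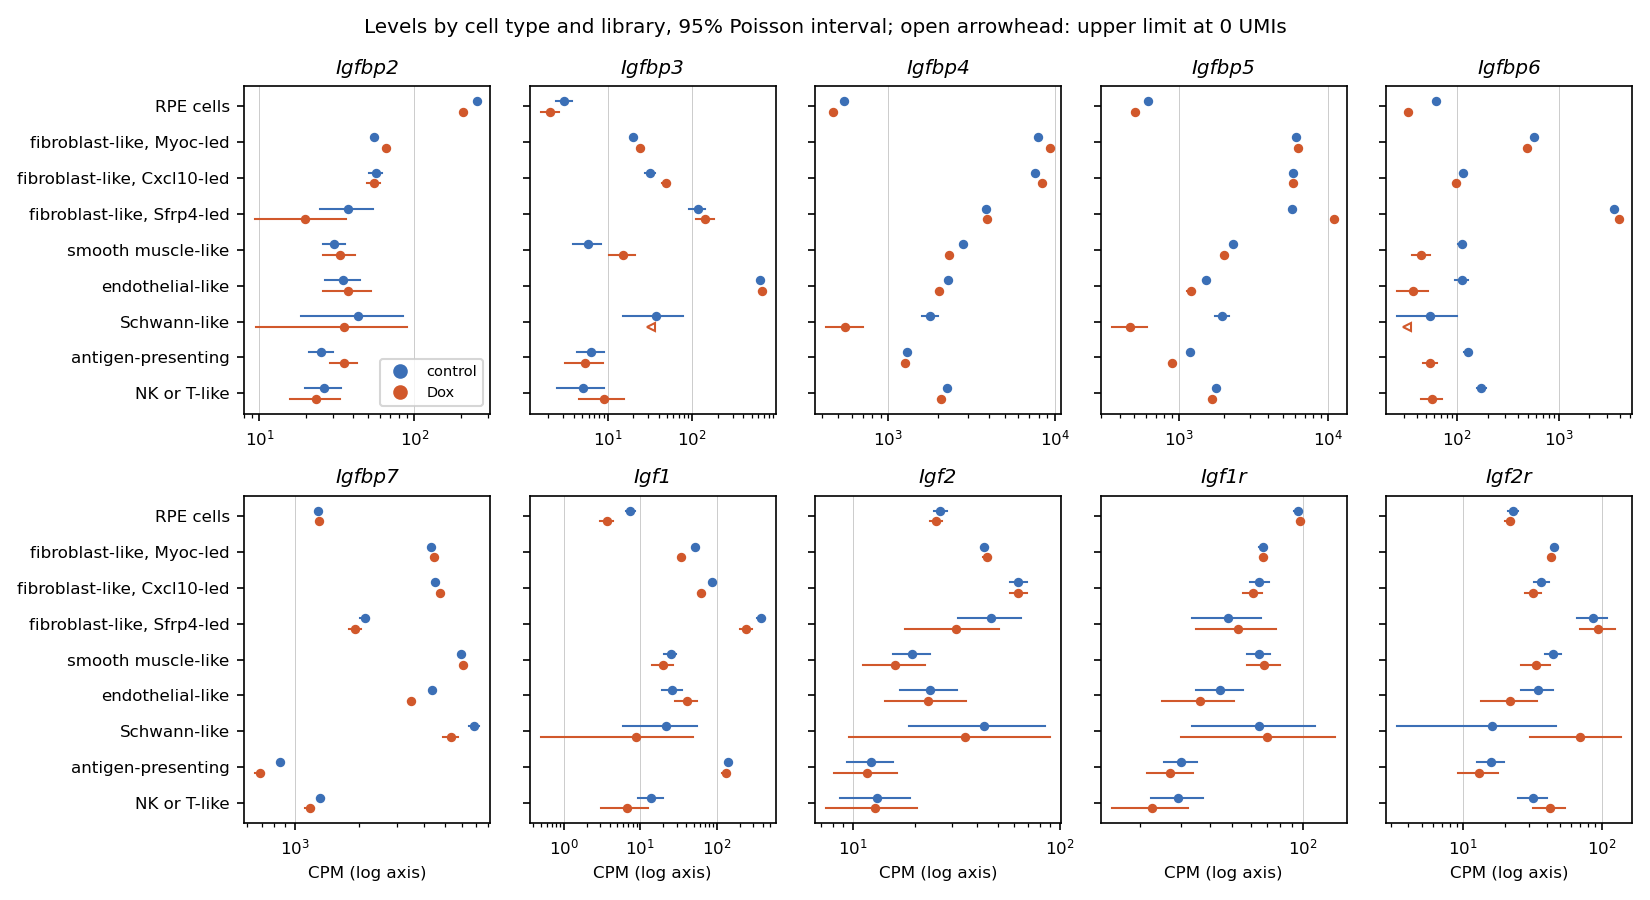
Level of each member by cell type, in CPM on a log axis, with a point per library, bars for the exact Poisson 95% interval and an open arrowhead where there were 0 UMIs. Igfbp2 and Igf1r are the members whose RPE values (Igfbp2 256 CPM in control and 205 CPM in Dox) stand above those of fibroblast-like cells in both libraries.

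Of the 10 members, 2 had a higher CPM in RPE cells than in fibroblast-like cells in both libraries, Igfbp2 and Igf1r. The share of all genes with that order is not given, so that the number of members is a description only. Igfbp2, a binding protein that prefers IGF-2, stood at 256 CPM (250 to 262) in control RPE cells and 205 CPM (200 to 210) in Dox RPE cells. In fibroblast-like cells it stood at 55.1 and 64.0 CPM. RPE cells came first of the 9 named cell types in both libraries, with an interval apart from the next, and they held 56.6% of all Igfbp2 UMIs in control and 56.1% in Dox. A cluster that took no name, led by the hemoglobin gene Hbb-bs, had 140 CPM in the control library and 324 CPM in the Dox library, above RPE cells in the latter. Its cells were shallow, with a median of 1244 and 768 UMIs. Even without the cells counted as RPE, it held 508 and 1404 CPM of Rpe65, against 200 and 274 CPM in fibroblast-like cells. The source of its Igfbp2 was not tested. With each cell thinned to 1000 UMIs, 13.4% of control RPE cells held an Igfbp2 UMI, against 2.23% of NK or T-like cells. The Dox shares were 13.1% and 2.63%.

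Igfbp4 and Igfbp5, which bind both IGFs and are cut by pregnancy-associated proteases, were highest in fibroblast-like cells. Igfbp4 stood at 7867 CPM (control) and 9168 CPM (Dox) in fibroblast-like cells, against 539 and 466 CPM in RPE cells, which were last of the named types in both libraries. Fibroblast-like cells held 88.8% and 93.2% of all Igfbp4 UMIs. Igfbp5 stood at 6104 and 6285 CPM in fibroblast-like cells and at 618 and 506 CPM in RPE cells. Both were also plentiful in droplets of immune cells. Control NK or T-like cells had a mean of 10.4 Igfbp4 UMIs per cell, against 9.29 in RPE cells, and the median was 1 in both. At 1000 UMIs per cell, 24.6% of control RPE cells held an Igfbp4 UMI, below the 36.3% of NK or T-like cells, so that this share is not read as expression by RPE cells. Where these UMIs came from was not tested. For Igfbp5 the shares were 34.3% and 34.97%. Without thinning, where RPE cells held more UMIs in all, the median was 4 Igfbp5 UMIs per control RPE cell and 1 per NK or T-like cell. In Dox these medians were 3 and 0.

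Igfbp7, a basement membrane protein that binds IGF weakly, was highest in Schwann-like cells in control (6860 CPM) and in smooth muscle or pericyte-like cells in Dox (6100 CPM). Its fibroblast-like levels were 4325 and 4469 CPM. RPE cells had 1287 and 1298 CPM, with an interval that overlapped that of NK or T-like cells in control (1311 CPM) and lay above it in Dox (1172 CPM). Counted per cell at equal depth, more RPE cells than NK or T-like cells held it. At 1000 UMIs per cell, 62.1% of control RPE cells held an Igfbp7 UMI, against 33.9% of NK or T-like cells, and in Dox the shares were 59.8% and 29.7%. The median was 17 UMIs per RPE cell and 1 per NK or T-like cell in control.

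Igfbp3, the main carrier of IGF in blood, was highest in vessel cells. Endothelial-like cells held 630 CPM of it in the control library and 657 CPM in the Dox library. The fibroblast-like cells led by Sfrp4 came next, at 116 and 141 CPM. RPE cells were at 3.08 CPM (81 UMIs) and 2.12 CPM (66 UMIs). Igfbp6, which prefers IGF-2, had its highest level in the small cluster led by Sfrp4 (109 control and 71 Dox cells), at 3500 and 3921 CPM. The large cluster led by Myoc had 569 and 487 CPM, and RPE cells 61.8 and 33.3 CPM.

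Of the ligands, Igf1 was highest in the Sfrp4-led fibroblast-like cells, at 378 (control) and 245 CPM (Dox). Antigen-presenting cell-like cells followed at 143 and 133 CPM. RPE cells held little of it, 7.45 CPM (196 UMIs) and 3.62 CPM (113 UMIs), against 13.9 and 6.77 CPM in NK or T-like cells, whose interval lay above that of RPE cells in control and overlapped it in Dox. Igf2 was low everywhere. Its highest level was that of the Cxcl10-led fibroblast-like cells, 63.1 and 63.0 CPM, and RPE cells had 26.5 and 25.2 CPM. At 1000 UMIs per cell, 2.30% of control RPE cells (1.61 to 3.18) held an Igf2 UMI, against 0.891% of NK or T-like cells (0.243 to 2.27), intervals that overlap. The CPM intervals were apart, with 24.6 to 28.5 in control RPE cells and 8.65 to 18.8 in control NK or T-like cells. In Dox they were 23.5 to 27.0 and 7.44 to 20.5.

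Igf1r, the signalling receptor, stood at 94.97 CPM (91.3 to 98.8) in control and 97.7 CPM (94.3 to 101) in Dox RPE cells. Fibroblast-like cells had 66.9 and 66.6 CPM. RPE cells came first of the named types in both libraries. In control their interval was apart from that of the next, the Myoc-led cells, but overlapped that of the 57 Schwann-like cells (33.4 to 113). In Dox it overlapped that of the 32 Schwann-like cells, which came next. The unnamed cluster led by Snhg7os had 126 and 150 CPM, beside 623 and 1048 CPM of Rpe65. At 1000 UMIs per cell, 10.3% of control RPE cells held an Igf1r UMI, against 2.90% of NK or T-like cells. Igf2r had 23.0 and 21.8 CPM in RPE cells and 44.97 and 42.36 CPM in fibroblast-like cells, with the highest values in the Sfrp4-led cluster (86.3 and 94.3 CPM). Its share of RPE cells at 1000 UMIs, 2.69%, was not above the 2.90% of NK or T-like cells. Per 100 fibroblast marker UMIs, however, NK or T-like cells held 0.53 (control) and 0.93 (Dox) Igf2r UMIs. Fibroblast-like cells held 0.188 and 0.190. Whether RPE cells express Igf2r is therefore not read from this share.

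**Figure D2:**
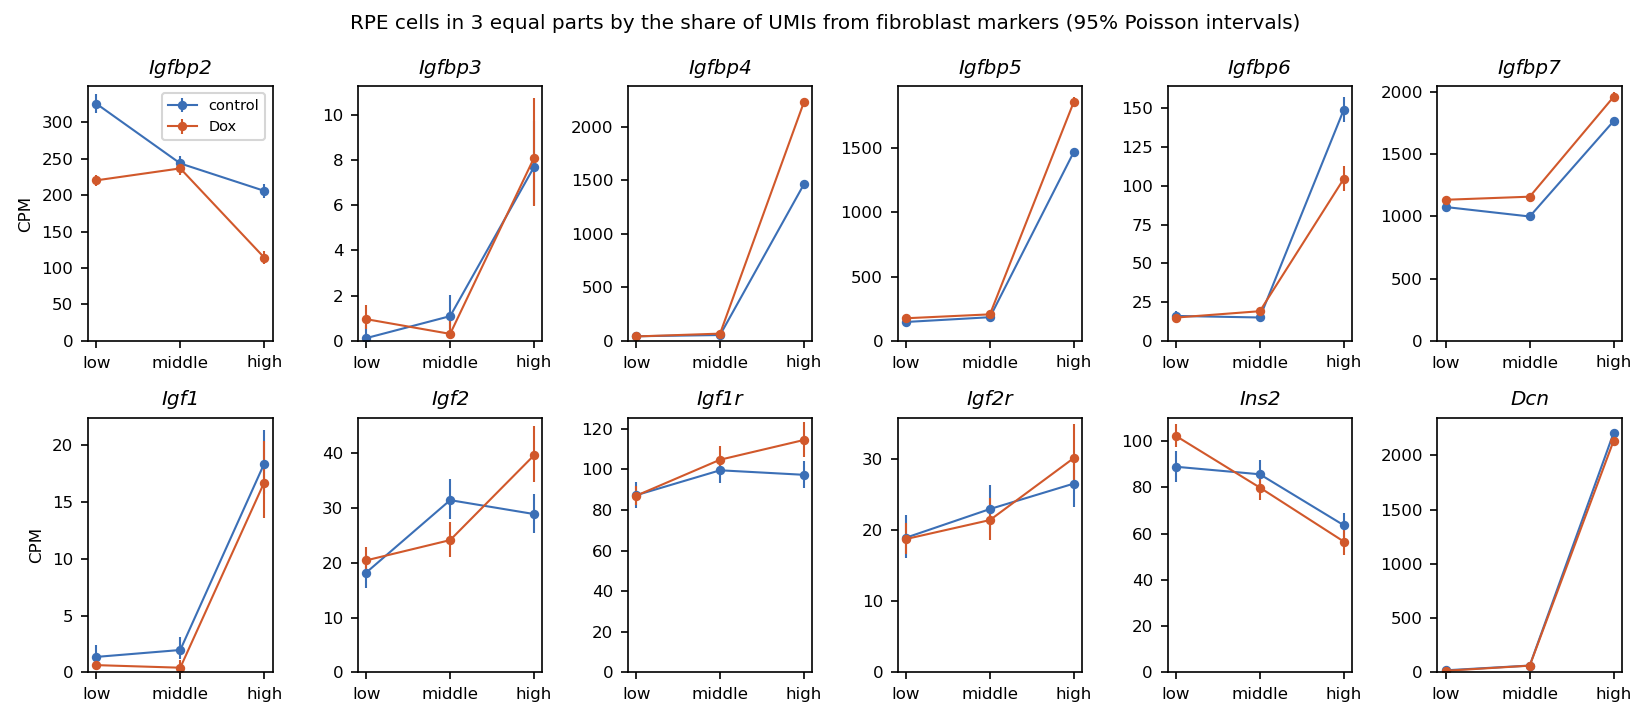
Members in RPE cells split into 3 equal parts by the share of fibroblast marker UMIs per cell, in CPM on axes that start at 0, with a line per library and bars for Poisson 95% intervals. Ins2 and the fibroblast marker Dcn are drawn beside them. Igfbp4 runs from 43.5 CPM in the lowest part to 1462 CPM in the highest part of the control library, whereas Igf1r and Igfbp7 change far less.

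The RPE cells differed in how much fibroblast RNA they carried, and the members followed it unequally. They were split into 3 equal parts by the share of the 17 fibroblast markers among their UMIs, over both libraries together. The lowest part held 393 control and 659 Dox cells, the middle part 517 and 535, and the highest part 616 and 436. In control, Igfbp4 stood at 43.5, 55.0 and 1462 CPM from the lowest to the highest part, and in Dox at 41.6, 67.9 and 2229 CPM. The highest part thus held most of the Igfbp4 of RPE cells. Igfbp5 had 147, 184 and 1470 CPM in control and 176, 207 and 1860 CPM in Dox. Igfbp6 had 16.1, 15.1 and 149 CPM in control and 15.1, 19.2 and 104 CPM in Dox. Igf1 rested on few UMIs and had 1.36, 1.97 and 18.3 CPM in control (11, 18 and 167 UMIs) and 0.641, 0.414 and 16.7 CPM in Dox (10, 4 and 99 UMIs). Igfbp3 had 1, 10 and 70 UMIs in control and 15, 3 and 48 in Dox. These binding proteins and Igf1 were thus mostly in the highest part, whereas Igfbp7, Igf1r and Igfbp2 were not confined to it. Igfbp7 had 1075, 999 and 1764 CPM in control and 1133, 1158 and 1959 CPM in Dox, and Igf1r 87.2, 99.5 and 97.3 CPM in control. Igfbp2 had 326, 244 and 206 CPM in control and 220, 237 and 114 CPM in Dox, and was lowest in the highest part of both libraries.

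Set against the fibroblast markers, Igfbp4 was near its fibroblast-like ratio in 2 of the 3 parts of the RPE cells. In the middle part of the RPE cells there were 32.0 Igfbp4 UMIs per 100 marker UMIs in control and 39.9 in Dox, and in fibroblast-like cells 32.9 and 41.2. In the highest part there were 28.0 and 40.5. In the lowest part, where the markers are fewest by the way it was cut, the ratio was higher, 94.4 and 95.9. Igfbp5 stood above its fibroblast-like ratio in the middle part too, with 107 and 121 per 100 marker UMIs against 25.6 and 28.2 in fibroblast-like cells. Igfbp7 had 582 and 679, against 18.1 and 20.1. Igfbp2 had 142 and 139, against 0.231 and 0.288. Igf2 had 18.3 and 14.2, against 0.190 and 0.210, and Igf2r 13.4 and 12.6, against 0.188 and 0.190. Since the parts were cut by the same markers, these ratios are descriptions.

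**Figure D3:**
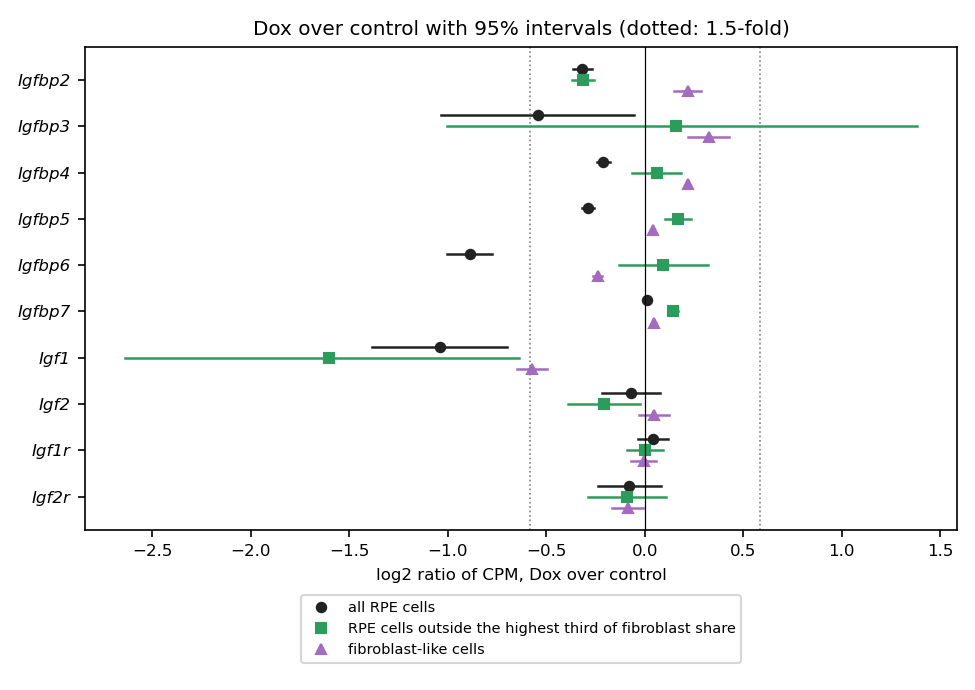
Log2 ratio of CPM in Dox over control for each member, with exact binomial 95% intervals and lines at 1.5-fold. Drawn are all RPE cells, RPE cells outside the part with the highest fibroblast share, and fibroblast-like cells. Igfbp6 (-0.89) and Igf1 (-1.04) lie beyond the line in all RPE cells, and no member does in fibroblast-like cells. Outside the highest part Igfbp6 lies at 0.094 and Igf1 at -1.6.

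In RPE cells, 2 of the 10 members, Igfbp6 and Igf1, were lower in the Dox library by 1.5-fold or more, and 0 were higher. Among the 12774 genes with at least 50 UMIs over both libraries, 4.92% were lower and 1.66% higher by that fold. The median log2 ratio was -0.25 over the members and -0.01 over all genes. Igfbp6 went from 61.8 CPM (1625 UMIs) to 33.3 CPM (1040 UMIs), a log2 ratio of -0.89 (-1.003 to -0.776). Igf1 went from 7.45 to 3.62 CPM, a log2 ratio of -1.04 (-1.39 to -0.70). Fibroblast-like cells held most UMIs of both (88.2% of Igfbp6 and 74.4% of Igf1 in control), and the fibroblast marker Dcn went from 792 to 433 CPM in RPE cells. Outside the part with the highest fibroblast share, the Igfbp6 ratio was 0.094 (-0.13 to 0.32) and the Igf1 ratio -1.61 (-2.64 to -0.64), the latter from 29 and 14 UMIs.

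Over all RPE cells Igfbp4 had a ratio of -0.21 (-0.24 to -0.18) and Igfbp5 one of -0.29 (-0.32 to -0.26), but neither direction held within the parts. Igfbp4 had 0.61 (0.57 to 0.64) in the highest fibroblast part, which is past 1.5-fold and holds most of its UMIs, and 0.06 (-0.07 to 0.19) in the cells outside it. It had -0.63 (-0.67 to -0.58) in the RPE cells of the RPE-like cluster and 0.94 (0.879 to 0.9998) in those outside that cluster. Igfbp5 had 0.26, 0.16 and 0.34 from the lowest to the highest part, each positive, and 0.17 (0.10 to 0.24) outside the highest. The highest part, where both are most abundant, held 616 control but 436 Dox cells. Igfbp7, named often as a senescence product, had 0.01 (-0.01 to 0.03) over all RPE cells. Within the parts it was positive in each, with 0.08 (0.04 to 0.11), 0.21 (0.17 to 0.25) and 0.15 (0.12 to 0.19) from the lowest to the highest. Outside the highest part it was 0.14 (0.12 to 0.17). Igfbp3, with few UMIs, had -0.54 (-1.03 to -0.05), but 0.07 (-0.49 to 0.62) in the highest part. Over all RPE cells the ligand Igf2 and the receptors stood within 0.1 of 0 on the log2 scale: Igf2 at -0.07 (-0.22 to 0.08), Igf1r at 0.04 (-0.04 to 0.12) and Igf2r at -0.08 (-0.24 to 0.08). The paper states that the Dox injection affected only a part of the RPE. Ratios over all Dox RPE cells are therefore not those of affected cells alone. What the fibroblast share contributes to these ratios was not tested beyond the split.

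The Igfbp2 ratio in RPE cells was -0.32 (-0.37 to -0.27), and it rested in part on a few cells. In control 5 of the 1526 RPE cells held 23.4% of all Igfbp2 UMIs, and in Dox 5 of 1630 held 12.6%. Without the 10 cells with the most Igfbp2 in each library, left out after the data had been seen, the ratio was -0.11 (-0.16 to -0.05). From the lowest to the highest fibroblast part it was -0.56, -0.04 and -0.85. In RPE cells with under 10 UMIs of Serpina3n, a protease inhibitor described below, it was -0.01 (-0.07 to 0.05). In the other RPE cells it was -2.70 (-2.79 to -2.60), and 36 control cells held 1935 of the UMIs there. A general decrease is therefore not read from the ratio over all RPE cells. The share of RPE cells with an Igfbp2 UMI at 5000 UMIs per cell was 40.7% (38.0 to 43.4) among control cells, against 41.0% (38.5 to 43.6) among Dox cells, which did not differ beyond counting error. At the same depth the shares of Igf1r were 38.4% and 39.2%, and those of Igfbp4 46.3% and 36.3%.

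**Figure D4:**
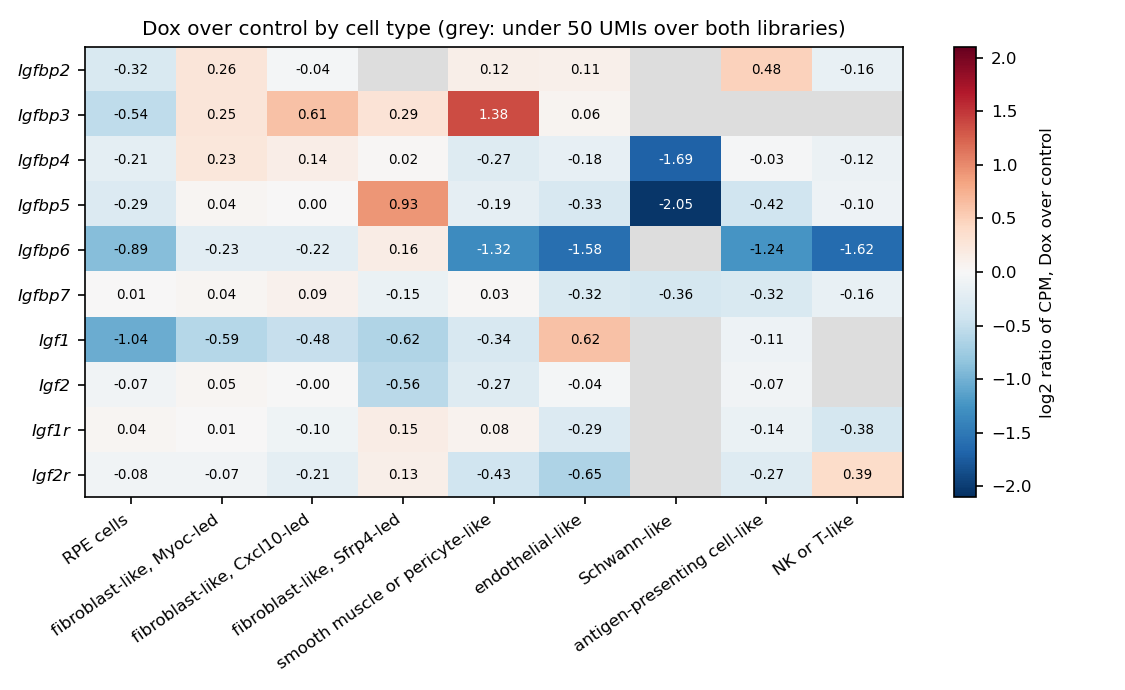
Log2 ratio of CPM in Dox over control for each member (rows) and cell type (columns), grey where both libraries together held under 50 UMIs. Igfbp6 is negative in immune, vascular and RPE cells, and Igfbp5 positive in Sfrp4-led fibroblast-like cells (0.93).

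In all fibroblast-like cells together, 0 of the 10 members were higher and 0 were lower by 1.5-fold, where 1.39% of 14159 genes were higher and 3.38% lower. The median was 0.04 over the members and 0.01 over all genes. Igf1 came nearest to the limit, going from 59.8 to 40.2 CPM, a log2 ratio of -0.57 (-0.65 to -0.50). Igfbp4 went from 7867 to 9168 CPM, a log2 ratio of 0.22 (0.22 to 0.23), and Igfbp3 had 0.33 (0.22 to 0.43). Igfbp6 had -0.24 (-0.26 to -0.22) and Igfbp2 0.22 (0.15 to 0.28). Rpe65 went from 200 to 274 CPM in fibroblast-like cells, and RPE cells held most Igfbp2 UMIs. The part of RPE RNA in the Igfbp2 ratio was not tested. Igfbp5, Igfbp7, Igf2, Igf1r and Igf2r lay between -0.09 and 0.05.

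The smallest fibroblast-like cluster, led by Sfrp4, differed. There Igfbp5 went from 5750 CPM in 109 control cells to 10982 CPM in 71 Dox cells, a log2 ratio of 0.93 (0.88 to 0.99), with a median of 31 and 44 UMIs per cell. The 10% of the cells with the most Igfbp5 held 33.6% of its UMIs in control and 51.7% in Dox. In this cluster 7.5% of the 3681 genes tested were higher by 1.5-fold or more. Igfbp6, whose level was highest in this cluster, had 0.16.

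Igfbp6 was lower in Dox in several types that hold little of it. NK or T-like cells went from 373 to 75 UMIs, a log2 ratio of -1.62 (-2.00 to -1.26), endothelial-like cells had -1.58, smooth muscle or pericyte-like cells -1.32 and antigen-presenting cell-like cells -1.24. Lower by 1.5-fold or more were 6.29% of the genes tested in NK or T-like cells, 5.34% in endothelial-like cells, 3.99% in smooth muscle or pericyte-like cells and 6.79% in antigen-presenting cell-like cells. In these 4 types the 10% of the cells with the most Igfbp6 held between 91.8% and 100% of its UMIs. The summed fibroblast markers were lower too, in NK or T-like cells from 6056 to 4533 CPM and in endothelial-like cells from 6826 to 4732 CPM. Per 100 fibroblast marker UMIs, Igfbp6 went from 2.86 to 1.24 in NK or T-like cells and from 1.64 to 0.79 in endothelial-like cells. It went from 1.82 to 1.10 in smooth muscle or pericyte-like cells and from 2.81 to 1.75 in antigen-presenting cell-like cells. In fibroblast-like cells it went from 2.32 to 2.11. In the 57 control and 32 Dox Schwann-like cells other members were lower in Dox. The ratio was -2.05 for Igfbp5 (363 and 54 UMIs) and -1.69 for Igfbp4 (331 and 63 UMIs), beside fibroblast markers of 5352 and 1784 CPM. The part of this RNA in these ratios was not tested.

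RPE cells with 10 or more UMIs of Serpina3n, an inhibitor of serine proteases that is raised in acute stress, numbered 36 in control and 225 in Dox. Igfbp7 was higher in them than in the other RPE cells of the same library. Thinned to 5000 UMIs, they had a median of 9 Igfbp7 UMIs in control and 10 in Dox, against 5 and 4 in the other RPE cells. On the CPM scale the control cells gave a log2 ratio of 0.78 (0.72 to 0.84), the Dox cells one of 0.93 (0.90 to 0.96). Within the part of lowest fibroblast share it was 0.81 and 1.23. Igf2 went the opposite way, at 4.44 CPM in Serpina3n-rich and 27.5 CPM in other control cells, and at 6.54 and 30.2 CPM in Dox. Igfbp2 had a higher CPM in the Serpina3n-rich cells of both libraries, 1719 against 190 in control and 265 against 189 in Dox. In Dox the share of cells with an Igfbp2 UMI was however 28.4%, against 41.4% in the others, so that no order is read for it. The cells of 1 library are no replicates of each other, so that these differences have no test.

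**Figure D5:**
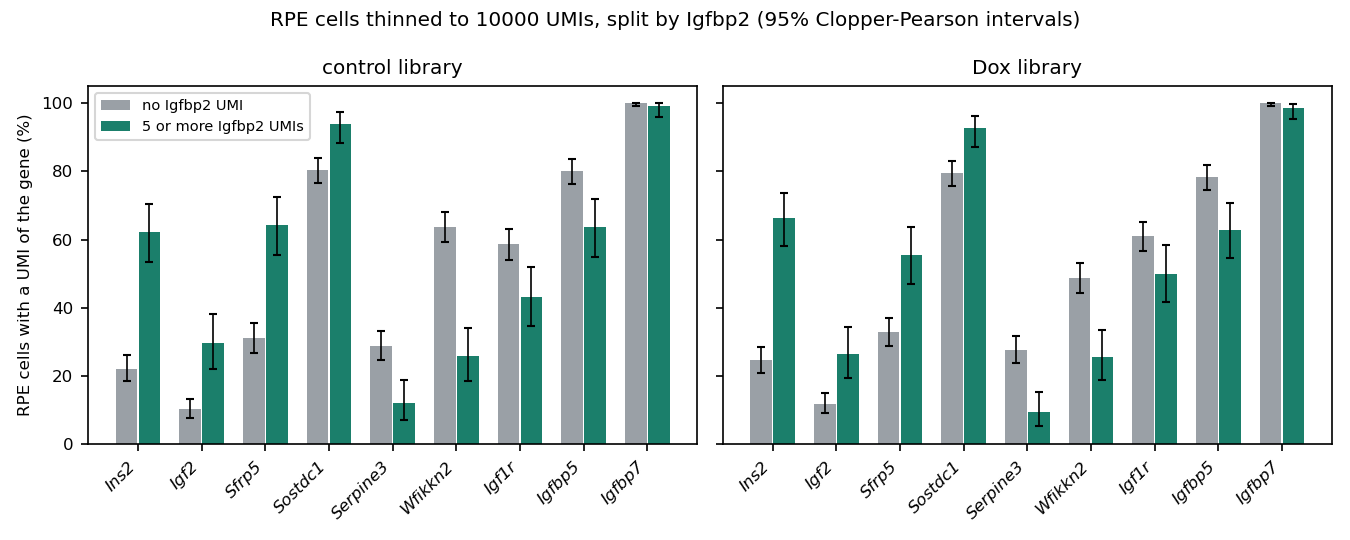
Share of RPE cells with a UMI of each gene, in percent after thinning to 10000 UMIs, in cells with 5 or more Igfbp2 UMIs and in cells with none, for each library with Clopper-Pearson 95% intervals. Ins2 (62.1% against 22.1% in control) and Igf2 stand higher, and Serpine3 and Wfikkn2 lower, where Igfbp2 is high. These genes were picked by this split in both libraries.

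Igfbp2 was uneven among RPE cells. After thinning to 10000 UMIs, which left out 452 control and 475 Dox cells, 132 control cells and 148 Dox cells held 5 or more Igfbp2 UMIs, and 471 and 513 held none. Genes with at least 50 CPM in a group and 50 UMIs in each library were ranked by the smaller of the ratios of CPM that the libraries gave between these groups, and Ins2 (insulin 2), Igf2, Sfrp5 (a secreted WNT antagonist) and Sostdc1 (an antagonist of BMP and WNT) followed Igfbp2 itself. In control 62.1% of the Igfbp2-high cells (53.3 to 70.4) held an Ins2 UMI, against 22.1% of cells without Igfbp2 (18.4 to 26.1). In Dox the shares were 66.2% and 24.6%. An Igf2 UMI was in 29.5% against 10.2% of the control cells and in 26.4% against 11.9% of the Dox cells. The ranking picks genes that are higher in both libraries, so that the likeness of the libraries follows from the choice and is a description. On the CPM scale the log2 ratio was 2.03 for Ins2 and 1.81 for Igf2 in control, and 2.65 and 1.54 in Dox. Split by Ins2 in the same way, the libraries differed for Igf2. In control 6.25% (0.77 to 20.8) of 32 Ins2-high cells held an Igf2 UMI, against 15.8% (13.2 to 18.7) of cells without Ins2. In Dox it was 42.9% (27.7 to 59.0) of 42 cells, against 11.9% (9.62 to 14.4).

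Serpine3, a serpin gene, led the genes that were lower in the Igfbp2-high cells, with 51.1 CPM against 1217 CPM in control and 13.0 against 604 CPM in Dox. These levels rest on a minority of cells. A Serpine3 UMI was in 12.1% against 28.9% of control cells and in 9.46% against 27.7% of Dox cells. The median was 0 in each group. Wfikkn2, which encodes a secreted protease inhibitor that binds myostatin, followed, with a UMI in 25.8% against 63.7% of control cells. Igf1r had a lower share over all RPE cells: 43.2% of Igfbp2-high cells and 58.6% of cells without Igfbp2 held a UMI of it in control, and 50% and 61.0% in Dox, where the intervals (41.7 to 58.3 and 56.6 to 65.3) overlapped. Within the lowest fibroblast part the Igf1r intervals overlapped in both libraries, with 51.0% against 60.9% in control and 58.7% against 59.2% in Dox. Cells without Igfbp2 also held more fibroblast RNA, with 2034 CPM of the markers against 746 CPM in control. Within the lowest fibroblast part, where the markers stood at 48.3 and 48.5 CPM in control, the log2 ratio of the Igfbp2-high cells was 1.41 for Ins2, 2.16 for Igf2 and -5.30 for Serpine3. In Dox it was 3.17, 2.09 and -5.96. A Serpine3 UMI was in 14.3% against 37.4% of the control cells of this part and in 5.33% against 28.3% of its Dox cells. The position of these cells in the RPE layer was not measured.

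Of the 50 further genes of the pathway, in 4 lists, those that passed the fold in RPE cells are named here. Over all 12774 genes tested in RPE cells, 4.92% were lower and 1.66% higher by that fold. Of 11 ligands and carriers 6 could be tested, and Ccn3, a matricellular protein, was lower (-1.29, 74 and 36 UMIs). The growth hormone receptor Ghr had -0.45 and Ccn4 -0.32. Ins2 had 79.1 and 86.7 CPM in RPE cells. Of 8 proteases and inhibitors 4 could be tested, and Htra3, a serine protease with 78.6 CPM in control fibroblast-like cells, was lower (-1.16, 173 and 92 UMIs), whereas Pappa2, which cuts binding proteins, had 0.13 and Prss23 -0.09. Of 28 receptors, adaptors and kinases 25 could be tested. The insulin receptor substrates Irs3 (0.67, 34 and 64 UMIs) and Irs1 (0.61, 76 and 138 UMIs) were higher, 0 were lower, and Socs2, an inhibitor of growth hormone signalling, had -0.43. The insulin receptor Insr had 30.9 and 31.7 CPM. Of the 3 proteins that bind Igf2 mRNA, Igf2bp1 had 0.05 and the others had under 50 UMIs. Of the genes of these lists tested in fibroblast-like cells 1 passed, Ins2, which went from 191 to 411 UMIs, a log2 ratio of 1.35 (1.10 to 1.60), where RPE cells held most Ins2 UMIs (85.9% in control and 81.1% in Dox). Pappa2 had 0.44 there. Over all 14159 genes tested in fibroblast-like cells, 1.39% were higher and 3.38% lower by that fold.

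Genes whose levels followed each member most closely were found by Pearson correlation of log2(CPM + 10) over 18 profiles, those of 9 cell types in the 2 libraries. For Igfbp2 they were D330023K18Rik (0.97) and Tmem98 (0.96). For Igfbp4 they were Cygb (0.98), Cdh11 (0.97) and Colec12 (0.97), and for Igfbp5 Mrc2 (0.99), Bicc1 (0.99) and Twist1 (0.98). Igfbp3 was followed by Iigp1 (0.96), Tek (0.95) and Pdia5 (0.94), and Igfbp6 by Cercam, Fmod and Omd (0.94 each). Igfbp7 had Ccser2 (0.97), Morf4l1 (0.95) and Id1 (0.93), and Igf1 had Tgfbi (0.94), Rab3il1 (0.93) and Il13ra1 (0.92). The profiles share libraries, and 3 of the 9 types are fibroblast-like, so that these values are descriptions.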

How the data were processed

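Single-cell RNA of 2 libraries, 1 per condition, was analysed. The authors aligned reads to mm10 with Cell Ranger (4.0.0 per the file headers) and deposited raw counts of UMIs per gene and cell from a 5′ kit, which tag 1 end of a molecule and are not scaled by length. All per-sample columns were used. The libraries shared 441 cell barcodes.

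Cells were kept with more than 500 UMIs, with between 200 and 6000 genes, with a ratio of log10 genes to log10 UMIs above 0.8, and with less than 0.2 of their UMIs from mitochondrial genes. They were normalised by SCTransform, integrated on 2980 features, without the members and pathway genes, and clustered with 40 components at a resolution of 0.1 (Seurat 5.3.0, sctransform 0.4.2, R 4.3.3) into 11 clusters. Clusters were named from fixed markers by a scoring rule set after the clusters had been seen, which left 2 unnamed. Doublets were scored with Scrublet (scanpy 1.11.5) and not removed: it called 1941 control cells (9.62%) and 0 Dox cells, where it did not work.

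UMIs were summed into CPM with exact Poisson intervals in Python 3.11.15 (scipy 1.17.1, numpy 2.4.6, pandas 2.3.3). Ratios have exact conditional binomial and shares Clopper-Pearson intervals. A call means 1.5-fold or more among genes with at least 50 UMIs over both libraries. All members are named, and of each pathway list the 3 largest ratios and any call. Results for some genes are not reported here. The members and lists were chosen with earlier results of these data known. Insr and the split of RPE cells by Igfbp2, with the genes it ranks, were chosen after values were seen. The steps were tested on simulated data. The alternatives were other Rpe65 minimums, clusterings, filters, scalings, thinned cells, doublets left out and subsets of RPE cells, of which 5 were added after seeing the data. Positions are from GENCODE vM21, sequences from RefSeq, and figures used matplotlib 3.10.9.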

Additional observations from a re-analysis of the deposited data

Results flagged for a closer look

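Among the named cell types, Dox over control pointed in opposite directions in RPE cells and in another type, with both intervals apart from 0 and at least 1 ratio past 1.5-fold, for 3 binding proteins. The differences were not tested, since each condition had 1 library. The share of all genes that meet this rule is not given, so that the number of members is a description only. Igfbp5 had a log2 ratio of 0.93 in Sfrp4-led fibroblast-like cells and -0.29 in RPE cells, where it was however positive in each of the 3 fibroblast parts (0.26, 0.16 and 0.34). Igfbp6 had 0.16 in Sfrp4-led fibroblast-like cells and -0.89 in RPE cells, where it was 0.094 outside the highest fibroblast part. Igfbp3 had 0.61 in Cxcl10-led fibroblast-like cells (229 and 347 UMIs), against -0.54 in RPE cells. It had 1.38 in smooth muscle or pericyte-like cells (28 and 33 UMIs), from 21 control and 9 Dox cells. In RPE cells its ratio was however 0.07 (-0.49 to 0.62) in the highest fibroblast part. Outside that part it was 0.16, with an interval that included 0. Without the 10 RPE cells with the most Igfbp3 in each library it was -0.19 (-1.01 to 0.62). An opposite direction in RPE cells is therefore not read for Igfbp3. Below that fold, Igfbp2 had -0.32 in RPE cells and 0.22 in all fibroblast-like cells, and Igfbp4 -0.21 and 0.22. Rpe65 also went from 200 to 274 CPM in fibroblast-like cells, and the part of RPE RNA in their Igfbp2 ratio was not tested. In RPE cells with under 10 Serpina3n UMIs, Igfbp2 had -0.01 (-0.07 to 0.05) and Igfbp4 0.02 (-0.01 to 0.06).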

How the results depend on the processing

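In RPE cells the number of members lower in Dox by 1.5-fold was 2 (Igfbp6 and Igf1). It was 1 with at least 5 Rpe65 UMIs (Igf1), with the mean of the cells' own CPM (Igfbp6) and with cells thinned to 2000 UMIs (Igfbp6), 4 with RPE cells of the RPE-like cluster alone (Igfbp3, Igfbp4, Igfbp6 and Igf1), and 0 of 8 tested both in the lowest fibroblast part and outside the highest, the latter chosen after seeing the data. Igf1 was not tested in these for lack of 50 UMIs, and its ratio was -1.09 and -1.61. Outside the highest part the ratio of Igfbp6 turned, to 0.094. With at least 5 Rpe65 UMIs 1 member, Igfbp3, was higher, against 0. In fibroblast-like cells 1 member, Igf1, was lower with the mean of the cells' own CPM and with cells thinned to 1000 UMIs, against 0. The shares of all genes that pass under these alternatives are not given. These counts therefore show only how the calls depend on the processing. In RPE cells of the RPE-like cluster alone the fibroblast marker Dcn had -0.95 (-0.99 to -0.91). The 2 members with higher levels in RPE cells than in fibroblast-like cells were 2 under each alternative run. Of 130 values of single members in RPE cells 81 moved by less than their interval, and of 80 in fibroblast-like cells 66 did. The cause of these changes was not tested. No paired analysis was possible because each condition has 1 library. Igfbp3 and Igf1 in RPE cells rest on under 200 UMIs per library, and the spread between mice cannot be seen in pooled libraries.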
